A study of Mus musculus with 6 samples.

Results

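Aminoacyl-tRNA synthetases attach each amino acid to its own tRNA, and the genes described here are 36 members of that family and its scaffolds, chosen by symbol from a table of 40413 genes. Of the 36, 21 serve the cytosol (19 synthetase genes and the scaffold genes Aimp1 and Aimp2) and 15 serve the mitochondrion. The synthetase names carry the one-letter code of the amino acid, so Sars1 charges serine in the cytosol and Sars2 charges it in the mitochondrion. All 36 passed the filter on low counts and were among the 13705 genes tested. Lars2 was left out of the set because of its very high counts, so it is described apart from the members.

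The RNA came from N2A-A5 cells, which the labels call acceptor cells. N2A (Neuro-2a) is a mouse neuroblastoma line. The 0 h group (3 libraries) was undifferentiated and grown in medium with 10% fetal bovine serum and 10 µg/mL blasticidin. For the 96 h group (3 libraries) the cells were kept for 96 h in 10 µM retinoic acid, with serum lowered to 1% and blasticidin left out. The labels count a group's 3 libraries as biological replicates, and nothing says whether they came from separate thaws or days. The p-values therefore set the difference between groups against the variation among these libraries only. Retinoic acid, serum, blasticidin and time in culture changed together and cannot be told apart.

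Each synthetase uses ATP to join an amino acid to the end of its tRNA, and the charged tRNA is then carried to the ribosome by an elongation factor. In the cytosol of animal cells a part of the enzymes sits in a multisynthetase complex held together by the scaffolds AIMP1, AIMP2 and EEF1E1, while the others act outside it. Mitochondria use a set of enzymes of their own, encoded in the nucleus, except that glycine and lysine are charged in both places by products of the same genes, Gars1 and Kars1. Uncharged tRNA activates the kinase GCN2 (Eif2ak4), which raises translation of the transcription factor ATF4, and many cytosolic synthetase genes are known ATF4 targets.

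Totals ran from 16833672 to 20932343 counts per library. The share of the gene Gm26917 was 20.2% ± 2.20 at 0 h and went to 30.5% ± 1.59 at 96 h (SD, n = 3 each). With that gene, mitochondrial transcripts and small structural RNA removed before scaling, no member's log2 fold change moved by more than 0.0014. Summed levels of 10 sympathetic neuroblastoma markers, of which 9 were tested, ran from 2040 to 2110 CPM (counts scaled to a common library size with TMM factors) at 0 h and from 1960 to 2080 CPM at 96 h. Within that sum 7 of the 9 were lower at 96 h, among them Gata2 (-1.77 ± 0.06) and Chga (-0.76 ± 0.07). Gata3 did not pass, and Prph was higher (567 to 1043 CPM, 0.88 ± 0.05). Of all genes tested, 28.8% were lower and 28.7% higher. Markers of 5 other cell types summed to at most 8.36 CPM at 0 h, and at 96 h to at most 12.2 CPM, reached by the fibroblast list (4.28 to 4.77 CPM at 0 h and 10.5 to 12.2 CPM at 96 h), in which Pdgfra (1.62 ± 0.21) and Dcn (0.99 ± 0.33) were higher at 96 h and Col3a1 and Lum were at 0. Their part in the results was not tested.

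The cytosolic synthetase genes divided. Of 21 cytosolic members, 11 rose between 0 h and 96 h, 7 fell and 3 did not pass the test (edgeR quasi-likelihood test, Benjamini-Hochberg adjusted p under 0.05 over all genes tested). Among all genes tested, 28.7% were higher and 28.8% lower. The median log2 fold change of the 21 was 0.27, beside 0.03 for all genes tested, and the range ran from -0.65 (Aimp2) to 1.22 (Wars1). In 11 genes all 96 h libraries lay above all 0 h libraries and in 7 all lay below, where 32.4% and 31.7% of all genes tested did so. Of the mitochondrial members, 2 of 15 rose, 4 fell and 9 did not pass, with a median of -0.13.

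**Figure D1:**
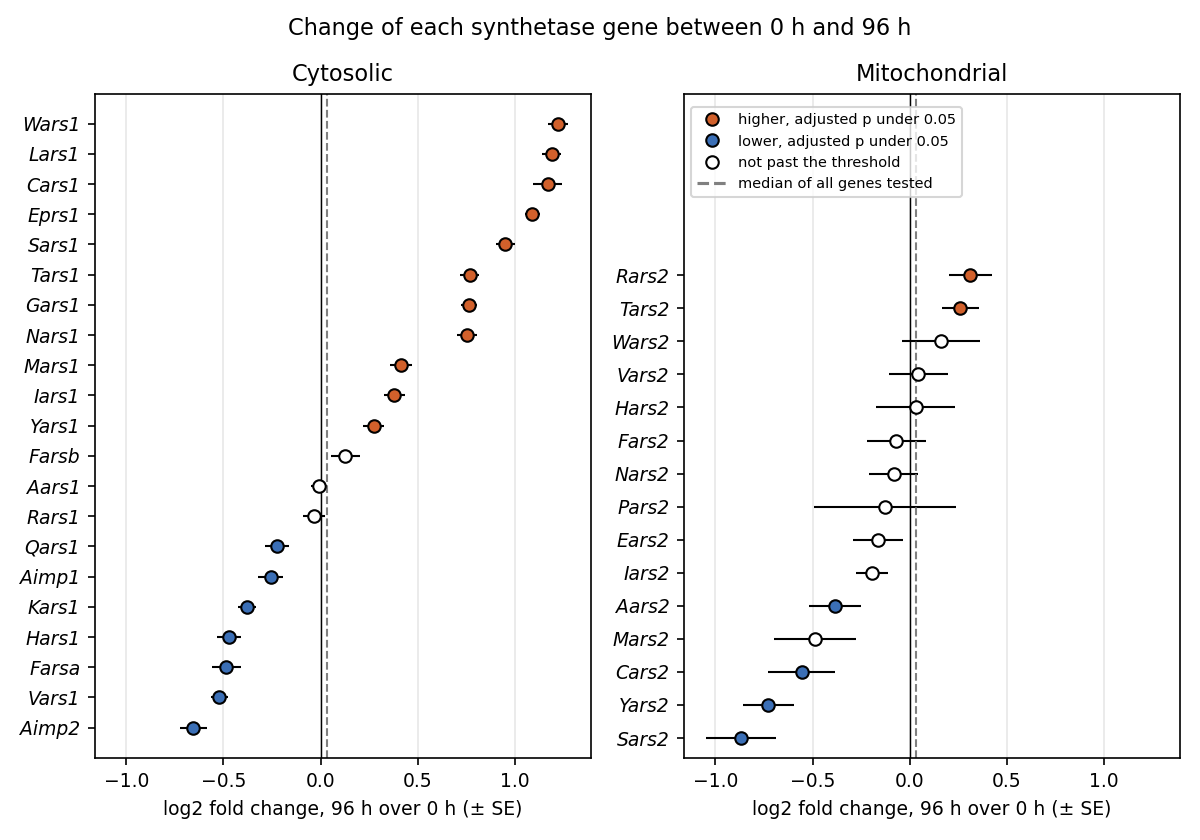
Log2 fold change between 0 h and 96 h (x axis, bars are the SE) for the 21 cytosolic genes (left) and the 15 mitochondrial genes (right), with filled points for genes past an adjusted p of 0.05 and a dashed line at the median of all genes tested, 0.03. Cytosolic genes spread from -0.65 to 1.22 with narrow bars, and the mitochondrial genes spread from -0.87 to 0.31 with wider ones.

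Wars1, Lars1, Cars1 and Eprs1 rose more than 2-fold, where 11.7% of all genes tested were higher by at least 2-fold. No member fell by as much, and 3.77% of all genes did. These 2-fold marks hold for the TMM scale: with library size alone Wars1 (0.97), Lars1 (0.94), Cars1 (0.92) and Eprs1 (0.84) still rose but by less than 2-fold, and Sars2 fell by more than 2-fold (-1.12). Wars1, the tryptophan enzyme, had 67.2, 71.1 and 69.1 CPM in the 0 h libraries and 158, 158 and 168 CPM in the 96 h libraries (replicates 1, 2 and 3, as for all such series). All of its 96 h values lay above 0 h, and the difference was far wider than the spread within a group (2.33-fold, log2 fold change 1.22 ± 0.05, SE, edgeR adjusted p = 3.09e-10).

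Lars1, which charges leucine within the complex, held 68.8, 68.8 and 70.6 CPM at 0 h and 153, 163 and 158 CPM at 96 h. Its groups were equally well apart (2.28-fold, 1.19 ± 0.05, adjusted p = 2.94e-10). Cars1, the cysteine enzyme, went from 34.7, 34.1 and 40.7 CPM to 83.3, 77.8 and 84.8 CPM. The lowest 96 h library of Cars1 stood well above the highest at 0 h (2.25-fold, 1.17 ± 0.07, adjusted p = 1.42e-08). Eprs1 encodes a fused enzyme that charges glutamate and proline in 1 chain. It had 420.0, 433 and 419 CPM at 0 h and 912, 876 and 919 CPM at 96 h, with no overlap (2.13-fold, 1.09 ± 0.04, adjusted p = 1.27e-10). Eprs1 alone made up 15.2% ± 0.32 of the summed cytosolic CPM at 0 h and 23.2% ± 0.32 at 96 h (SD, n = 3 each).

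A second tier rose by less than 2-fold. Sars1, the serine enzyme, went from 143 ± 5.75 to 276 ± 8.18 CPM (SD, n = 3 each, 1.93-fold). Gars1, whose products charge glycine in both compartments, went from 329 ± 8.32 to 559 ± 4.97 CPM (1.70-fold), Tars1 for threonine from 104 ± 3.87 to 178 ± 5.57 CPM (1.70-fold) and Nars1 for asparagine from 108 ± 2.18 to 182 ± 10.1 CPM (1.68-fold). The smallest rises belonged to Mars1 for methionine (1.33-fold), Iars1 for isoleucine (1.30-fold) and Yars1 for tyrosine (1.21-fold). In none of these 7 genes did a 96 h library reach down into the 0 h range, but with scaling by library size alone Iars1 and Yars1 no longer passed (log2 fold changes 0.13 and 0.02).

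**Figure D2:**
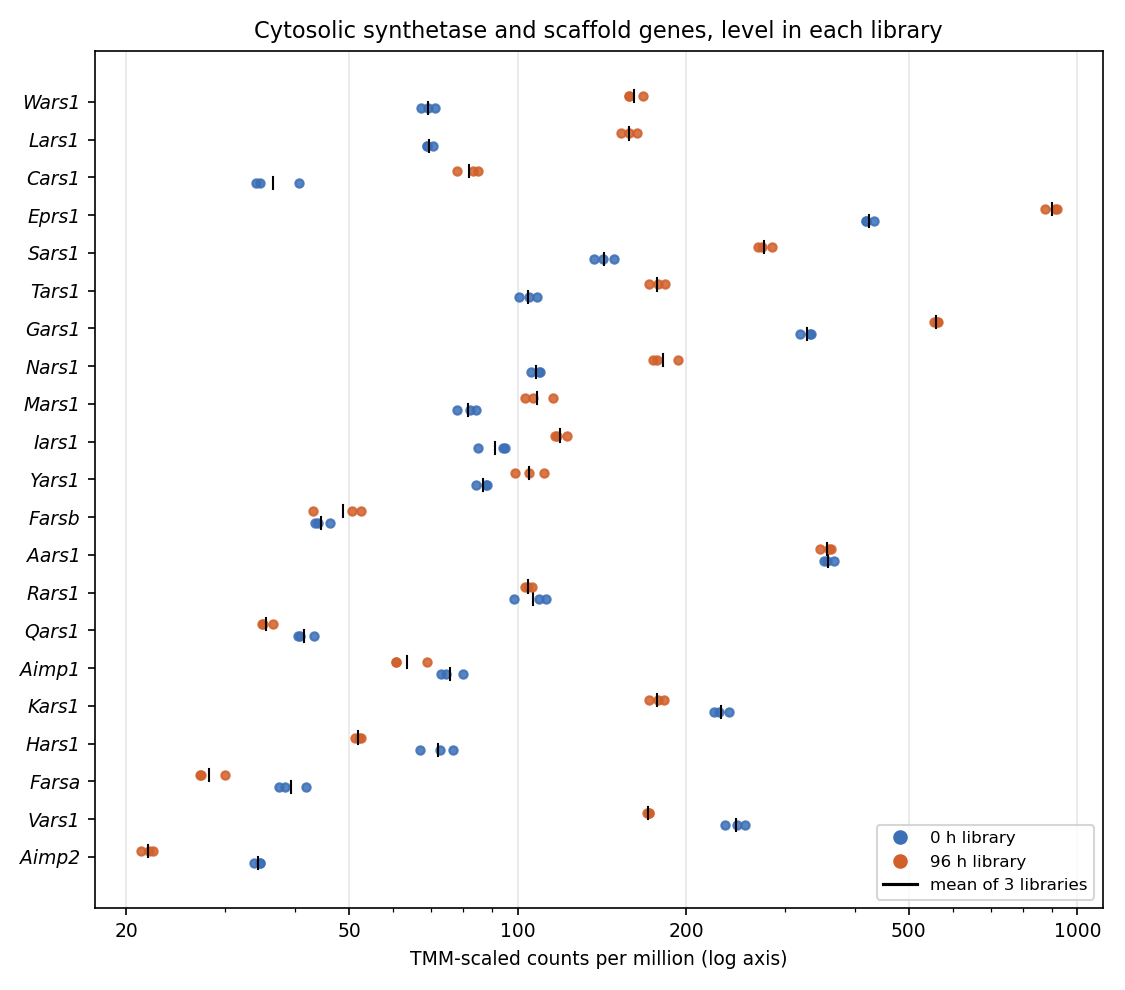
Level of the 21 cytosolic genes in each library, in TMM-scaled CPM on a log axis, with a point per library (blue 0 h, orange 96 h) and a tick at each group mean. Genes are ordered by log2 fold change, and the groups overlap in Farsb, Aars1 and Rars1.

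The 7 cytosolic genes that fell include both scaffolds. Aimp2, which joins synthetases within the complex, showed the largest fall of the cytosolic set, from 34.6, 34.7 and 33.9 CPM at 0 h to 22.0, 21.2 and 22.3 CPM at 96 h. Its groups were tight and separate (log2 fold change -0.65 ± 0.07, adjusted p = 2.58e-06). In the GENCODE M21 transcripts, 38.5% of the 31-base words of Aimp2 also occur, on the opposite strand, in other genes, chiefly Eif2ak1, which itself fell (-0.38 ± 0.08). The strand setting of the counting is not given in the sources used here, so reads of this pair may not have been told apart. The same limit applies to Aimp1 (13.04% of words, chiefly with Tbck), Farsb (9.45%, Sgpp2) and Hars1 (8.32%, Hars2), all on the opposite strand, and Iars1 shares 17.2% with other genes, chiefly Gm4849 on the same strand. Aimp1, the other scaffold, had 74.6, 80.0 and 72.9 CPM at 0 h and 60.6, 60.7 and 68.9 CPM at 96 h. The third 96 h library came close to the 0 h range without entering it (-0.26 ± 0.07, adjusted p = 0.00414).

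Vars1, the valine enzyme, dropped from 234, 247 and 255 CPM to 170.3, 172 and 171 CPM. The 96 h libraries lay within 2 CPM of each other and below all of the 0 h values (-0.52 ± 0.05, adjusted p = 3.88e-07). Hars1, which charges histidine, held 76.6, 72.7 and 67.0 CPM at 0 h and 52.6, 51.3 and 52.0 CPM at 96 h, and was lower in every 96 h library (-0.47 ± 0.06, adjusted p = 1.90e-05). Kars1 makes the lysine enzyme of both compartments. It had 229, 224 and 238 CPM at 0 h and 172, 182 and 178 CPM at 96 h, again without overlap (-0.38 ± 0.05, adjusted p = 8.83e-06). Gars1, the other gene that serves both compartments, thus moved the opposite way, by 0.76 ± 0.04. Qars1, the glutamine enzyme, showed the smallest fall, from 40.9, 43.4 and 40.5 CPM to 35.0, 35.1 and 36.6 CPM (-0.22 ± 0.06, adjusted p = 0.00823). Upper-quartile scaling ended the call of Qars1 (-0.14).

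The subunits of the phenylalanine enzyme did not move together. Farsa, the catalytic alpha subunit, had 38.5, 37.5 and 41.9 CPM at 0 h and 30.0, 27.2 and 27.1 CPM at 96 h (-0.49 ± 0.07, adjusted p = 7.53e-05). Farsb, the beta subunit, had 44.1, 43.4 and 46.3 CPM at 0 h and 50.6, 52.4 and 43.1 CPM at 96 h, with the third 96 h library below all 0 h values (0.13 ± 0.08, adjusted p = 0.168). Without that library Farsb passed (0.20, adjusted p = 0.0236, in a range of 0.0236 to 0.526 over its 15 alternative fits), and with library size alone its sign changed (-0.13). The ratio of Farsa to Farsb (CPM + 0.5 in each) went from 0.88 to 0.58, without overlap between groups (exact two-sided permutation p = 0.1, the smallest that 3 libraries against 3 allow). This pair was picked after its values were seen.

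Aars1 and Rars1 did not pass the test. Aars1, the alanine enzyme, is among the most abundant members, with 353, 356 and 368 CPM at 0 h and 361, 347 and 363 CPM at 96 h. Its groups overlapped throughout, with an SE as small as that of the genes that rose (-0.01 ± 0.04, adjusted p = 0.861). Rars1, the arginine enzyme of the complex, had 98.6, 113 and 109 CPM at 0 h and 103, 106 and 104 CPM at 96 h (-0.03 ± 0.06, adjusted p = 0.656). The direction of both depends on the scaling: with upper-quartile factors they stood at 0.07 and 0.05, and with library size alone both were called lower, at -0.26 and -0.28. Leaving out 96 h replicate 2 for Aars1 (0.01) and 0 h replicate 2 for Rars1 (0.00063) also brought the values to the other side of 0. About 20.3% of the 31-base words of Aars1 are shared with other genes, chiefly Exosc6 on the same strand, which had 9.92 CPM at 0 h against 359 CPM for Aars1.

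Genes of the complex went both ways. Of the 9 complex members, Eprs1, Lars1, Mars1 and Iars1 rose, Kars1, Qars1, Aimp1 and Aimp2 fell and Rars1 did not pass. Outside the complex 7 of 12 cytosolic members rose and 3 fell. The scaffold gene Eef1e1, which is not in the set, had -0.34 ± 0.18 (edgeR adjusted p = 0.12), a value that passed without 0 h replicate 1 (-0.52, adjusted p = 0.0147), with no filter (adjusted p = 0.0331) and with library size alone (adjusted p = 0.00807). By the structural classes of the catalytic fold, 6 of 9 cytosolic class I genes rose and 2 fell, and 4 of 9 class II genes rose and 3 fell, beside 28.7% higher and 28.8% lower of all genes tested, with Eprs1 holding a domain of each class. No test of these groupings was made.

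The direction of change can be set beside the promoter sequence. RefSeq promoter windows (GRCm38.p6, an earlier build than the mm39 of the counts, 250 bases before to 50 bases after a start site) were matched for 27 of the 36 members, 14 cytosolic and 13 mitochondrial. The element searched was TGATGNAA on both strands, a spelling of the C/EBP-ATF composite element that ATF4 is known to bind with a C/EBP partner. It occurred in 5 of the 14 cytosolic windows (Aars1, Gars1, Iars1, Tars1 and Yars1) and in 0 of the 13 mitochondrial genes, and in 4.51% of 27025 genes with a window. The 5 matches are shown because 4 belong to genes that rose and 1, Aars1, to a gene that did not. Each stretch below runs 5′ to 3′ along the gene's strand, and capitals mark the match, which in Aars1, Gars1, Iars1 and Tars1 lies on the opposite strand.
Aars1: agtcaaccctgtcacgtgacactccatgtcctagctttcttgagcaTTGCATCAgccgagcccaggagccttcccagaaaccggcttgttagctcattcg
Gars1: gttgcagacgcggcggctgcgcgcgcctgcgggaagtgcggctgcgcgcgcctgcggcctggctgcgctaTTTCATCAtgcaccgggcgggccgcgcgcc
Tars1: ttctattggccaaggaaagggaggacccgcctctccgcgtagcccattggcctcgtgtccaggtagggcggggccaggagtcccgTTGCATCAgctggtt
Iars1: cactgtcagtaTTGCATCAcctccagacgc
Yars1: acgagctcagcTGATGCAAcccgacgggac

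The Aars1 stretch is chr8:111033684-111033783 (plus strand) and the Gars1 stretch chr6:55037901-55038000 (plus strand). The Tars1 stretch is chr15:11399659-11399758 (minus strand), the Iars1 stretch chr13:49682126-49682155 (plus strand) and the Yars1 stretch chr4:129189895-129189924 (plus strand), all in GRCm38.p6. The match began 112 bases before the start site in Aars1, 30 before it in Gars1 and 15 before it in Tars1, and at base 8 after it in Iars1 and base 4 after it in Yars1. Aars1, Iars1, Tars1 and Yars1 carry the narrower spelling TGATGCAA, which is contained in TGATGNAA and was present in 1.03% of genes. A second match to TGATGNAA in Aars1 (TTTCATCA) began at base 10 after the start site. Among the 14 cytosolic genes with a window, 7 rose and 4 of these held the element, while 1 of the 7 others did. Counting only bases before the start site this was 2 of 7 against 1 of 7, and for TGATGCAA it was 3 of 7 against 1 of 7 in the whole window and 1 of 7 against 1 of 7 before the start site. Eprs1, Farsa, Farsb, Kars1, Mars1, Qars1, Sars1, Aimp1 and Aimp2 held none in the window. Cars1, Lars1, Nars1 and Wars1, which rose, had no window and were not searched. Wars1, Lars1 and Cars1 are among the genes that rose more than 2-fold. Hars1, Rars1, Vars1, Hars2 and Pars2 had no window either.

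Other elements were searched in the same windows. The cyclic AMP response element TGACGTCA was found in 0 of 27 members' windows and in 2.03% of all genes. The E-box CACGTG was found in 4 cytosolic genes (Aars1, Farsb, Iars1 and Tars1) and 1 mitochondrial gene (Ears2), that is 5 of 27 members, beside 8.09% of all genes. In Aars1 the E-box begins 146 bases before the start site and can be read in the stretch above. These matches describe the letters of a window and do not show binding.

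Mitochondrial members were far less abundant, so their changes were measured less precisely. Counts per library ran from 14 to 758 for the 15 mitochondrial genes and from 330 to 16509 for the 21 cytosolic ones. The SE of the log2 fold change ran from 0.08 to 0.37 in the mitochondrial set and from 0.04 to 0.08 in the cytosolic set. Per kilobase of RNA, using the median length of a gene's coding transcripts, the cytosolic genes with a length had a median level of 50.6 CPM per kb at 0 h and the mitochondrial genes 5.53 CPM per kb. With the longest transcript in its place these were 29.9 and 4.46 CPM per kb.

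Gars1 stood highest per kilobase at 96 h with either length, at 235 CPM per kb (138 at 0 h). Eprs1 went from 86.4 to 184 CPM per kb, equal under both lengths because only 1 coding transcript is annotated for each of these genes. At 0 h Vars1 ranked above Gars1 with the median length (300 CPM per kb) and below it with the longest (59.4 CPM per kb), so their order at 0 h is not settled.

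**Figure D3:**
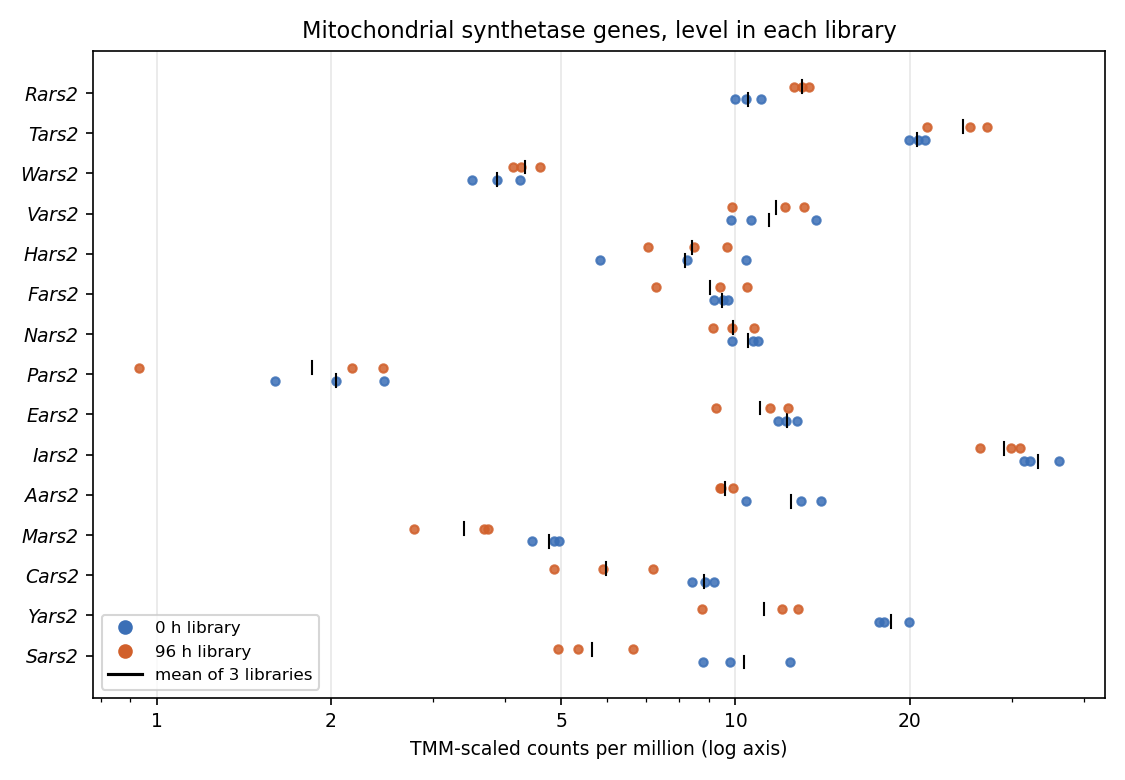
Level of the 15 mitochondrial genes in each library, in TMM-scaled CPM on a log axis, with a point per library (blue 0 h, orange 96 h) and a tick at each group mean. Genes are ordered by log2 fold change, from Sars2 at the bottom (-0.87) to Rars2 at the top (0.31).

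Sars2 and Yars2 showed the largest falls in the mitochondrion. Sars2, the mitochondrial serine enzyme, had 12.4, 8.77 and 9.77 CPM at 0 h and 4.93, 6.66 and 5.34 CPM at 96 h. Although replicate 1 was high at 0 h, no 96 h library reached the 0 h range (-0.87 ± 0.18, adjusted p = 9.75e-04). Yars2, the tyrosine enzyme, had 17.7, 18.1 and 19.96 CPM at 0 h and 12.1, 8.77 and 12.8 CPM at 96 h. Its 96 h replicate 2 was the lowest and the groups were apart (-0.73 ± 0.13, adjusted p = 2.99e-04). Cars2, which charges cysteine, had 8.42, 8.86 and 9.19 CPM at 0 h and 4.86, 7.19 and 5.90 CPM at 96 h, all lower (-0.56 ± 0.17, adjusted p = 0.013). Cars2 shares 19.4% of its 31-base words with other genes on the opposite strand, chiefly Naxd, which rose (0.40 ± 0.13).

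Aars2, Rars2 and Tars2 passed by less. Aars2, for alanine, had 12.96, 14.1 and 10.4 CPM at 0 h and 9.46, 9.41 and 9.91 CPM at 96 h (-0.38 ± 0.13, adjusted p = 0.0257). Its call was lost on leaving out 0 h replicate 1 (adjusted p = 0.0655) or replicate 2 (0.116), or 96 h replicate 1 (0.0555) or replicate 2 (0.0605), in a range of 0.00172 to 0.116 over its 15 alternative fits. Rars2, for arginine, had 10.4, 9.96 and 11.1 CPM at 0 h and 13.4, 13.03 and 12.6 CPM at 96 h (0.31 ± 0.11, adjusted p = 0.0289). Tars2, for threonine, had 20.7, 19.9 and 21.3 CPM at 0 h and 25.4, 21.4 and 27.2 CPM at 96 h (0.26 ± 0.09, adjusted p = 0.0286). In both genes every 96 h value lay above 0 h, closest in replicate 2 of Tars2.

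Neither mitochondrial rise was stable to the loss of a library. The call of Rars2 was lost on leaving out 0 h replicate 1 (adjusted p = 0.0646), replicate 2 (0.0949) or any of the 96 h libraries (0.0855, 0.0638 and 0.0505), and ranged from 0.00858 to 0.675 over its alternatives. That of Tars2 was lost on leaving out 0 h replicate 1 (0.0739) or replicate 2 (0.112), or 96 h replicate 1 (0.121) or replicate 3 (0.184), with a range of 0.006 to 0.931. DESeq2 and library size alone also ended both calls. Iars2, the isoleucine enzyme and the most abundant of the 15 by CPM, did not pass (-0.20 ± 0.08, adjusted p = 0.0575), though it did without 0 h replicate 3 (0.0402) or 96 h replicate 1 (0.0441), with a replicate block (0.045), with no filter (0.0188) and with library size alone (0.000881), in a range of 0.000881 to 0.247. It shares 31.6% of its 31-base words with other genes, chiefly Rab3gap2 on the opposite strand (-0.01 ± 0.09).

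The remaining 8 mitochondrial genes did not pass. Mars2 had -0.49 ± 0.21 (adjusted p = 0.0619) with all 96 h libraries below 0 h, and passed with limma-voom (0.0498) and with library size alone (0.00665), in a range of 0.00665 to 0.207. The other 7 ran from -0.16 ± 0.13 (Ears2) to 0.16 ± 0.20 (Wars2) with overlapping libraries, and of these Ears2 (-0.42, adjusted p = 0.0117) and Nars2 (-0.34, adjusted p = 0.0369) were called lower with library size alone. Pars2, for proline, was the least abundant at 2.04 ± 0.434 CPM at 0 h and 1.85 ± 0.810 CPM at 96 h (-0.13 ± 0.37). Not passing the test does not show that these genes stayed level.

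Ratios within a library depend little on scaling, so each cytosolic gene was also compared with the mitochondrial gene for the same amino acid, as the ratio of their CPM with 0.5 added to each. In 11 of 15 pairs the log2 ratio of the cytosolic to the mitochondrial gene was higher in every 96 h library than in any at 0 h, in 3 it was lower, and in 1 (Hars1 to Hars2) the libraries overlapped. Each of the 14 had an exact two-sided permutation p = 0.1, the smallest possible, and 0.107 after adjustment over the 15 pairs, so no pair can pass in a design of this size. The Hars1 to Hars2 ratio had an exact permutation p = 0.2. Eprs1 enters 2 pairs, with Ears2 and Pars2, so the pairs are not independent. No share over other gene pairs was computed. Of single genes tested, 32.4% had all 96 h libraries above 0 h and 31.7% had all below. Of the 21 cytosolic members 11 and 7 did so. The pairs are built from these same genes, and whether their counts differ from those of other gene pairs was not tested.

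The serine pair moved furthest. Sars1 stood at 13.3 times Sars2 at 0 h and 45.2 times at 96 h (geometric means), a shift of 1.76 on the log2 scale that joins a rise of Sars1 to a fall of Sars2. The cysteine pair went from 3.96 to 12.9, and the tyrosine pair from 4.58 to 9.11. For tryptophan the ratio went from 15.96 to 33.5, and Wars2 itself did not pass. The ratio was lower at 96 h for valine (20.8 to 14.1), phenylalanine with Farsa (3.99 to 3.02) and arginine (9.75 to 7.77). Over all members the summed cytosolic level went from 2793 ± 24.2 to 3889.97 ± 50.3 CPM and the summed mitochondrial level from 177 ± 1.47 to 159 ± 3.68 CPM (SD, n = 3 each). Their ratio, free of scaling, was 15.5, 15.9 and 15.8 in the 0 h libraries and 24.0, 24.7 and 24.7 in the 96 h libraries. The mitochondrial sum leaves out Lars2, listed at 5221 CPM at 0 h and 8537 CPM at 96 h. The cytosolic sum includes both scaffolds, and Gars1 and Kars1, which serve both compartments. This ratio therefore describes the chosen members and not the whole family.

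**Figure D4:**
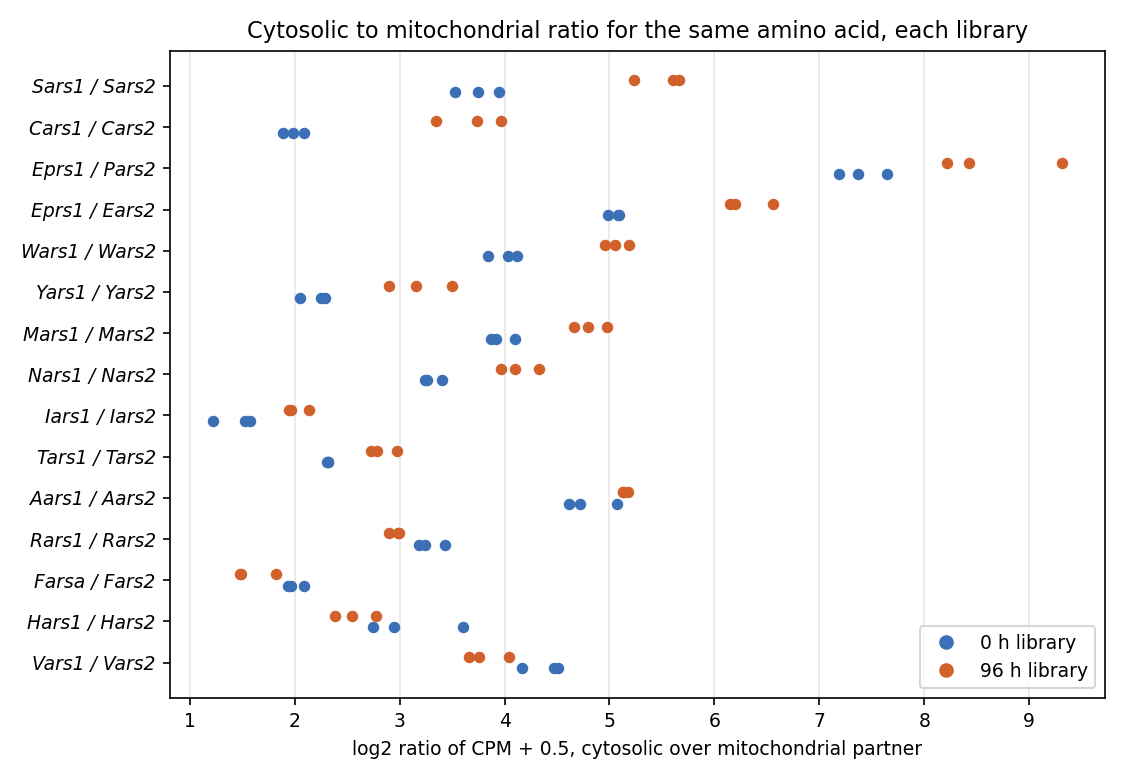
Log2 ratio of CPM + 0.5 of each cytosolic gene to that of the mitochondrial gene for the same amino acid (x axis), with a point per library (blue 0 h, orange 96 h). Pairs are ordered by the difference between groups, from 1.76 for Sars1 to Sars2 at the top to -0.56 for Vars1 to Vars2 at the bottom.

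Genes that work beside the synthetases were mixed. Lars2, the mitochondrial leucine enzyme, was listed at 5221 ± 641 CPM at 0 h and 8537 ± 1094 CPM at 96 h (0.71 ± 0.09), more than the summed level of all 36 members in either group. Whether its reads come from the coding transcript was not tested. Tars3, a paralog of Tars1, fell (from 37.1 ± 1.76 to 19.3 ± 1.59 CPM, -0.94 ± 0.08) while Tars1 rose, so that the ratio of Tars1 to Tars3 (CPM + 0.5) went from 2.79 to 9.002 (exact permutation p = 0.1, the smallest possible, in a pair picked after its values were seen). Mitochondria make glutaminyl-tRNA through the amidotransferase GatCAB, of which Qrsl1 fell (-0.56 ± 0.11), while Gatb (0.21 ± 0.22) and Gatc (-0.25 ± 0.14) did not pass, the last changing to a fall without 96 h replicate 1 (-0.43, adjusted p = 0.0191).

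The other partners named here did not pass. The methionyl-tRNA formyltransferase Mtfmt stood at 0.39 ± 0.21. The trans-editing and proofreading genes Aarsd1 (0.00 ± 0.08), Prorsd1 (-0.22 ± 0.27), Dtd1 (-0.17 ± 0.12) and Dtd2 (0.22 ± 0.23) and the selenocysteine genes Pstk (-0.48 ± 0.36) and Sepsecs (0.07 ± 0.17) were likewise not past the threshold.

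In tRNA maturation and export, 7 of 28 tested genes rose and 9 fell, with a median of 0.02, shares near the 28.7% and 28.8% of all genes tested. Xpot, the exporter of mature tRNA, rose from 129 ± 4.23 to 229 ± 2.60 CPM (0.83 ± 0.05), and Hsd17b10, a subunit of mitochondrial RNase P, rose by 1.21 ± 0.10. Pop1, a subunit of nuclear RNase P, fell (-1.29 ± 0.10), as did Ssb, the La protein that binds new tRNA (-0.65 ± 0.05). Subunits of neither RNase P moved together. Of the mitochondrial enzyme, Trmt10c fell (-0.58 ± 0.08) and Prorp did not pass (0.05 ± 0.18). Of the nuclear enzyme, Rpp25 (-1.41), Pop7 (-0.89), Rpp30 (-0.62) and Pop5 (-0.51) fell. Rpp40 (0.58), Rpp14 (0.45) and Pop4 (0.40) rose, and Rpp21 and Rpp38 did not pass.

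Of 16 genes listed for the sensing of uncharged tRNA and amino acids, 8 rose and 6 fell, beside the same 28.7% and 28.8%. The list includes signalling genes that are not sensors themselves. Eif2ak4, which encodes GCN2, rose by 0.28 ± 0.07. Atf4 rose from 201 ± 7.44 to 626 ± 16.5 CPM (1.64 ± 0.04) and the phosphatase subunit Ppp1r15a by 1.89 ± 0.11, while the initiation factor subunit Eif2s1 (-0.54 ± 0.05) and Gcn1 (-0.29 ± 0.06), the partner of GCN2, fell. Of a list of 24 ATF4 target genes outside the synthetases, all 23 tested rose, with a median of 1.62 (Ddit3 3.10 ± 0.07 and Slc7a11 4.49 ± 0.11 had the smallest p), beside the median of 0.27 in the cytosolic set. Of 21 genes of that list with a promoter window, 8 held TGATGNAA, beside 4.51% of all genes with a window. The 8 include Vldlr, which had too few counts to be tested. In each of the other lists described here 0 genes held TGATGNAA. The ATF4 list was made of known targets, with earlier results of these data known. Neither its rise nor its share with the element is therefore a test of ATF4.

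Of 18 mitochondrial translation factors, 2 rose and 5 fell, the latter near the 28.8% of all genes that were lower, while 28.7% were higher. The elongation factors Tufm (-0.80 ± 0.09) and Gfm1 (-0.61 ± 0.06) fell, and Guf1 (0.64 ± 0.15) and the initiation factor Mtif2 (0.32 ± 0.10, adjusted p = 0.0121) rose. Mtif2 did not pass without 96 h replicate 1 (0.26, adjusted p = 0.0822) or with library size alone (0.07, adjusted p = 0.589). Among 14 tRNA modification genes 3 rose, including Gtpbp3 (0.78 ± 0.15) and Qtrt2 (0.57 ± 0.10), and 4 fell, including Yrdc (-0.59 ± 0.10) and Nsun2 (-0.29 ± 0.05).

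The zero of these comparisons depends on the scaling. With library size alone the median of all genes tested moved by -0.25, with 17.6% of genes higher and 42.7% lower. Of the cytosolic members 9 were then higher and 9 lower, and of the mitochondrial members 0 were higher and 8 lower. Upper-quartile factors gave 12 higher and 6 lower cytosolic members, beside 33% and 24.4% of all genes. Wars1, Lars1, Cars1, Eprs1, Sars1, Tars1, Gars1, Nars1 and Mars1 were higher under all 16 alternatives run.

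The share of all genes called also moved with the other settings. It was 15.4% higher and 15.8% lower with no filter, 26.9% and 27.7% with DESeq2, 28.1% and 28.2% with a replicate block, and 21.9% and 23.9% at an adjusted p of 0.01. Leaving out 0 h replicates 1, 2 and 3 in turn gave 25.7%, 25.9% and 26.7% higher and 26.3%, 26.3% and 26.8% lower. Leaving out 96 h replicates 1, 2 and 3 gave 24.9%, 24.7% and 24.8% higher and 26.3%, 26.3% and 26.7% lower.

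**Figure D5:**
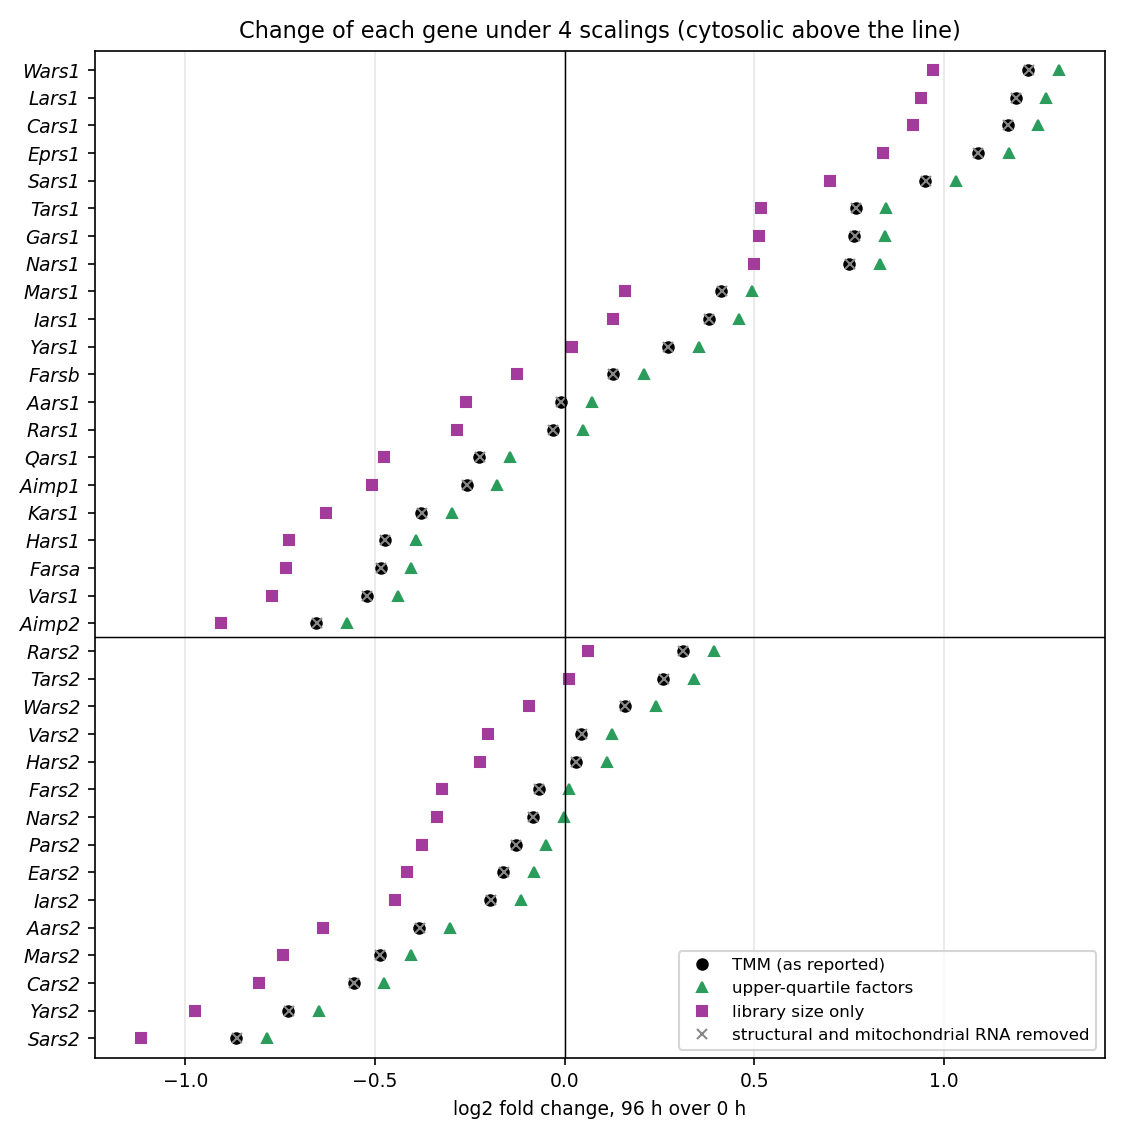
Log2 fold change of each of the 36 genes (x axis) under 4 scalings, with black circles for TMM, green triangles for upper-quartile factors, purple squares for library size only and grey crosses for TMM after removal of structural and mitochondrial RNA. Library size only shifts the genes to the left by at most 0.26, and the grey crosses lie on the circles.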

How the data were processed

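The 6 libraries, 3 per group, were deposited as a gene table of estimated counts, not normalised and not always whole. Per the labels' protocols, a stranded kit was used on rRNA-depleted total RNA and read from both ends. The submitters' processing notes name Salmon 1.10.1, FastQC 0.12.1, DESeq2 1.52.0 and the build mm39, with no role given. The annotation and the strand setting of the counting are not known here.

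Counts were rounded, filtered with filterByExpr, scaled with TMM factors and compared in edgeR 4.0.16 (R 4.3.3) by the quasi-likelihood F test over 13705 genes, with Benjamini-Hochberg adjustment and a threshold of 0.05. The SE is the size of the log2 fold change divided by the square root of F. A simulation of 12016 genes used the 0 h means, library sizes and dispersions. In it edgeR found 85% of 100 genes with 2-fold changes and 60% of 100 with 1.41-fold changes, and 11.6% of calls were wrong. Only those genes were changed there, while 28.7% of genes were called higher and 28.8% lower in the data. The simulated rates therefore need not hold for this comparison. Pair ratios used CPM with 0.5 added and exact permutation tests. Alternatives included limma 3.58.1 (voom), DESeq2 1.42.0, other scalings and filters, a replicate block and leaving out libraries. RNA lengths (GENCODE M21, GRCm38) matched 34 of 36 members, and promoter windows came from RefSeq.

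The members and lists were chosen with earlier results of these data known. The rule for named genes gave full values to cytosolic members past the threshold with at least a 2-fold change or with a fall, and to up to 3 mitochondrial members in each direction. From each list the 2 higher and 2 lower genes with the smallest adjusted p were named, and all partners except some that are not reported here. Values per library of Farsb, Aars1, Rars1 and Aars2 were added after seeing the data. So were the values of Eif2ak4 and of the RNase P subunits other than Hsd17b10 and Pop1. No libraries of the same group agreed within sampling noise over the genes pooled (chi-square per degree of freedom from 6.32 to 12.9). This measure includes Gm26917 and other very abundant genes and was not computed for the members alone.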

Additional observations from a re-analysis of the deposited data

How the results depend on the processing

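Of 21 cytosolic members, 15 kept their direction and their side of the threshold under all 16 alternatives; Aars1, Farsb, Iars1, Qars1, Rars1 and Yars1 did not. Of 15 mitochondrial members, Sars2 and Yars2 did. Leaving out 1 library gave 11 to 12 higher and 7 to 7 lower cytosolic members, and 0 to 2 higher and 3 to 5 lower mitochondrial ones. Higher mitochondrial members numbered 0 with library size only, with no filter, with DESeq2 and at an adjusted p of 0.01; lower ones numbered 8 with library size only and 2 at an adjusted p of 0.01. The cause of these changes was not tested.

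Signs changed for genes near 0. With upper-quartile factors they were Aars1 (0.072), Rars1 (0.049) and Fars2 (0.013). With library size only they were Farsb (-0.13), Hars2 (-0.22), Vars2 (-0.20), Wars2 (-0.094), Aarsd1 (-0.25), Dtd2 (-0.025), Gatb (-0.035) and Sepsecs (-0.19). With no filter they were Hars2 (-0.0054) and Aarsd1 (-0.033), with the stricter filter Aars1 (0.016), and with DESeq2 size factors and the DESeq2 test Aarsd1 (-0.0017 and -0.0017). Leaving out 1 library at a time, the sign changed within the ranges of Aars1 (-0.029 to 0.0071), Rars1 (-0.094 to 0.00063), Fars2 (-0.19 to 0.061), Hars2 (-0.17 to 0.24), Pars2 (-0.38 to 0.17), Vars2 (-0.060 to 0.19), Aarsd1 (-0.086 to 0.039), Dtd2 (-0.017 to 0.40) and Sepsecs (-0.075 to 0.20).

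Same-numbered libraries of the groups did not deviate together (r = -0.014, 0.014 and -0.0050 across 13705 genes, which are not independent replicates). Whether they shared a culture or day is not stated, and these r values, taken over all genes, cannot decide it. With a replicate block, 11 cytosolic members were higher and 7 lower, 2 mitochondrial members were higher and 5 lower (Iars2 added), and Aarsd1 stood at -0.00068. Summed cytosolic levels with library size only were 3045 CPM at 0 h and 3562 CPM at 96 h, and mitochondrial ones 193 and 145 CPM. Counting only bases before the start site, 3 cytosolic members held TGATGNAA, beside 3.91% of all genes; TGATGCAA occurred in 1.03%.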
